A study of Mus musculus with 8 samples.

Results

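F-box genes encode the interchangeable substrate receptors of a large class of ubiquitin ligases. The mouse genes described here are the protein-coding ones with an Fbxl, Fbxo or Fbxw symbol and a number, without Fbxo5 and Fbxo43. There were 75 of them (18 Fbxl, 34 Fbxo and 23 Fbxw) among 52502 genes with exons in the count files. A run of 14 Fbxw genes on chromosome 9 was looked at apart from the other 61. Their RNA was compared in germinal vesicle (GV) oocytes, which are fully grown oocytes held in meiotic prophase, between 4 libraries of Kiaa1429 conditional knockout (cKO) and 4 of control. The cKO genotype was Kiaa1429F/F;Zp3-Cre and the control genotype Kiaa1429F/+;Zp3-Cre, on C57BL/6. Both groups thus carried a floxed allele and the Cre, whose Zp3 promoter is active in growing oocytes, and the control was not a wild type. Kiaa1429, now called Virma, is part of the enzyme complex that places N6-methyladenosine on RNA. Both groups were females given as 20 days old in one label field and as 3 weeks old in another. They had received 5 IU of PMSG, a hormone that stimulates follicles, 48 h before collection, and each library held about 20 oocytes at least 70 µm wide. The labels speak of 4 experiments.

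In an SCF ligase the scaffold Cul1 carries the RING protein Rbx1 at one end and the adaptor Skp1 at the other. The F-box domain of the receptor docks on Skp1, and a second domain picks the protein to be ubiquitinated. That domain is a WD40 propeller in Fbxw proteins, leucine-rich repeats in Fbxl proteins and something else in Fbxo proteins. Oocytes use SCF ligases and the related anaphase-promoting complex to time protein loss through meiosis. The mouse Fbxw genes on chromosome 9 are a tandem family known for expression in oocytes. No other tissue was measured here, so that property was not tested.

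Counts on exons came to 4399190 to 5064008 per cKO library and 4247471 to 4790038 per control library. Virma itself stood at 17.0 to 24.2 CPM (counts scaled to the library's total) in the cKO and 57.1 to 82.0 CPM in the control. Summed over 10 oocyte marker genes, the level was 24087 ± 1963 CPM in the cKO and 42619 ± 6088 CPM in the control (SD, n = 4 each). Bmp15 and Gdf9 made up most of both sums. They averaged 7334 and 8130 CPM in the cKO and 18799 and 13582 CPM in the control. Of the 10 markers 1 was called higher, 5 lower and 4 were not called (over all 10673 genes tested 27.0% were higher and 27.9% lower). Summed over 16 cumulus and granulosa markers, the level was 401 to 698 CPM in the cKO and 204 to 363 CPM in the control. None of the 16 was at 0. Of 9 such markers tested, 3 were higher and 2 lower, shares of 33.3% and 22.2% near those over all genes. Of 8 blood and immune markers 6 were at 0 in every library. The sum of the 8 was 5.31 to 9.24 CPM in the cKO and 0.239 to 0.665 CPM in the control. Only 1 of them had enough counts to be tested, and it was called higher (log2 fold change 5.07). Of reads that were counted, ambiguous or outside exons, the ambiguous share was 79.3% ± 0.751 in the cKO and 73.8% ± 1.07 in the control (exact two-sided permutation test, p = 0.0286, the smallest that 4 against 4 allows, 0.0714 after adjustment over 5 measures). Of the same reads, 5.01% to 6.19% lay outside exons in the cKO and 9.86% to 12.0% in the control, with the same p and adjusted p. These shifts moved with the group in every comparison that follows, and their part in the results was not tested. In such pooled samples fewer cells of a type and less RNA per cell cannot be told apart. The labels do not tie libraries to animals, so each p-value reflects only how much these libraries vary, and that variation may be technical.

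More F-box genes fell than rose in the cKO. Of the 75 genes, 44 had enough counts to be tested. In edgeR's quasi-likelihood test, with p-values adjusted over 10673 genes by the Benjamini-Hochberg method, 20 of the 44 were lower, 5 were higher and 19 were not called. Over all genes tested 27.9% were lower and 27.0% were higher, and over protein-coding genes 23.5% were lower and 30.4% higher. The median log2 fold change of the 44 genes was -0.22, against 0.02 over all genes and 0.10 over protein-coding genes. The groups did not overlap in 19 of the 44 genes, where 50.1% of all genes tested did not. The 14 genes of the cluster were all tested, and 9 were lower and 0 higher, with a median of -0.53. Of 30 tested genes outside it, 11 were lower and 5 higher, with a median of -0.01. The 44 genes are those that passed a minimum of counts and do not stand for all 75.

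**Figure D1:**
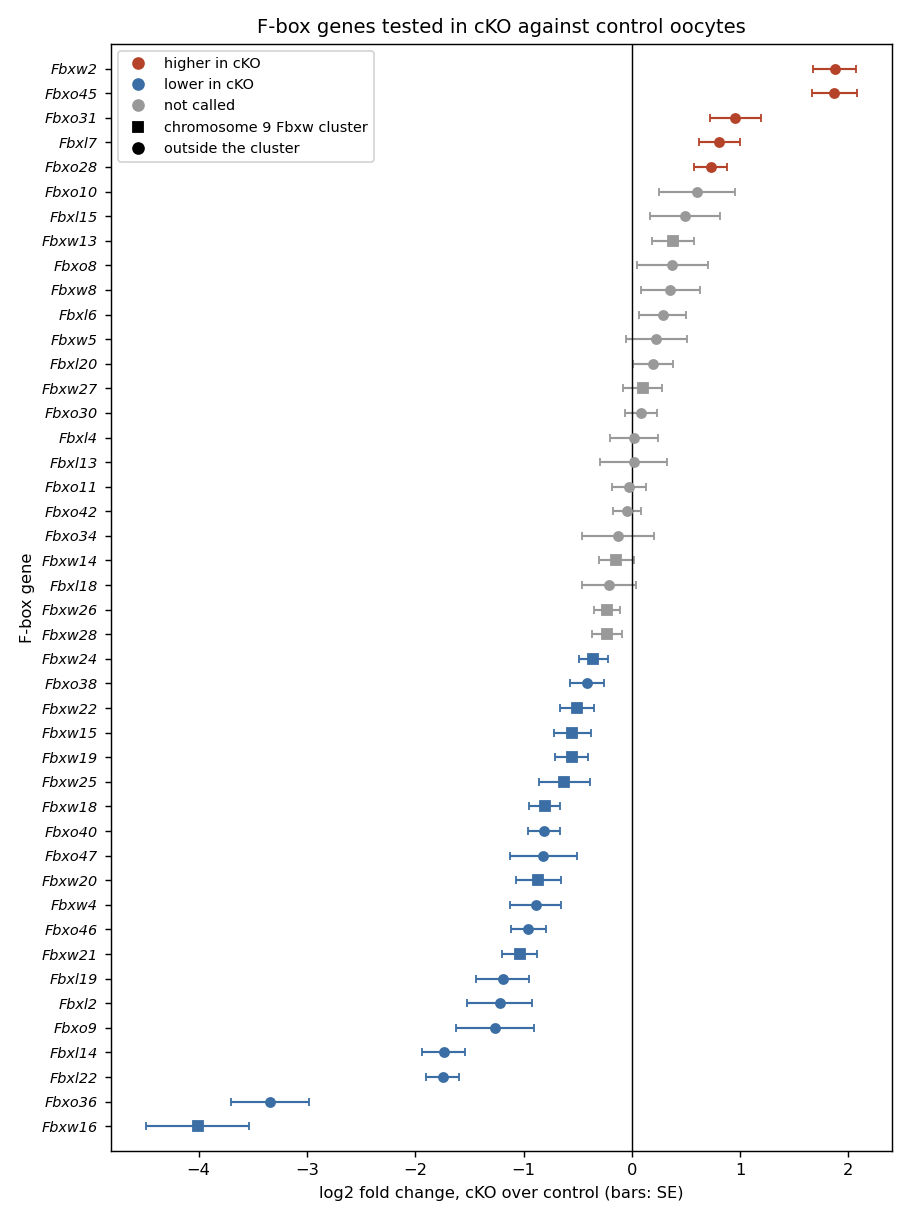
Log2 fold change of the 44 tested F-box genes, cKO over control (x axis), with bars of 1 standard error. Genes run down the page from Fbxw2 (1.87) to Fbxw16 (-4.01). Red genes were higher in the cKO, blue genes lower and grey genes not called, and squares mark the chromosome 9 Fbxw cluster.

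The 5 genes that rose all lie outside the cluster, and none of their libraries overlapped between groups. Fbxw2 (chr2:34804514-34826311 of mm10, minus strand), whose human protein targets the placental factor GCM1, had 16.8, 17.6, 17.4 and 20.2 CPM in the cKO, against 5.54, 4.79, 4.73 and 4.50 CPM in the control. Every cKO library was thus more than 3 times as high as every control library, and the log2 fold change was 1.87 (SE 0.20, adjusted p = 2.02e-06). Fbxo45 (chr16:32230112-32247158, minus strand), which works with the RING protein Mycbp2 in neurons instead of a standard SCF, had 74.2, 85.4, 74.6 and 85.2 CPM in the cKO, against 24.0, 29.2, 12.6 and 21.3 CPM in the control. Its log2 fold change was also 1.87 (SE 0.21, adjusted p = 3.14e-06), and 99.1% of its counts lay on last exons. Fbxo31, which removes cyclin D1 after DNA damage, had 19.7, 18.7, 26.0 and 19.5 CPM in the cKO, against 10.4, 14.1, 12.1 and 6.50 CPM in the control (log2 fold change 0.96, SE 0.23, adjusted p = 0.00269). The third cKO library was the highest and the lowest control library was control replicate 4. Fbxl7, a regulator of aurora A kinase, averaged 20.9 ± 0.891 CPM in the cKO and 11.9 ± 2.20 CPM in the control (SD, n = 4 each; log2 fold change 0.81, adjusted p = 0.00213). Fbxo28, a nuclear F-box protein linked to MYC in human cells, averaged 69.2 ± 9.33 CPM in the cKO and 41.8 ± 2.35 CPM in the control (log2 fold change 0.73, adjusted p = 0.000772). The number of F-box genes called higher was 8 without control replicate 2, which added Fbxl15, Fbxl16 and Fbxw8, and 8 without control replicate 3, which added Fbxl16, Fbxl20 and Fbxl6.

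Fbxo36, Fbxl22 and Fbxl14 fell the most outside the cluster. Fbxo36 (chr1:84839841-84900487, plus strand) had 0.665, 0.637, 0.860 and 0.749 CPM in the cKO, against 10.9, 7.18, 7.63 and 4.75 CPM in the control. That is 14 counts in all 4 cKO libraries and 127 in the control, and the log2 fold change was -3.34 (SE 0.36, adjusted p = 2.19e-06). Its locus overlaps Trip12 on the opposite strand with 0 shared exon bases, and Trip12 was not called (log2 fold change 0.21). Fbxl22 (chr9:66508459-66514593, minus strand), described as a sarcomere protein of heart muscle, had 37.0, 33.4, 28.2 and 35.0 CPM in the cKO, against 132, 114, 98.1 and 104 CPM in the control (log2 fold change -1.75, SE 0.15, adjusted p = 3.49e-07). No cKO library came near the lowest control library. The lower counts lay on its last exon. Fbxl14 (chr6:119479668-119482630, plus strand), which targets the transcription factor Snai1, had 28.8, 21.7, 20.4 and 22.8 CPM in the cKO, against 68.8, 109, 62.9 and 72.0 CPM in the control (log2 fold change -1.74, SE 0.20, adjusted p = 3.71e-06).

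The other 8 genes outside the cluster that were lower changed by smaller amounts. Fbxo9, a regulator of mTOR signalling components, had 1.33, 1.27, 1.07 and 2.25 CPM in the cKO, against 3.55, 4.31, 4.73 and 2.00 CPM in the control, so the groups overlapped (log2 fold change -1.26, SE 0.36, adjusted p = 0.00819). Fbxl2, which acts on regulatory subunits of PI3K, averaged 2.16 ± 0.634 CPM in the cKO and 5.11 ± 1.03 CPM in the control (SD, n = 4 each; log2 fold change -1.22, adjusted p = 0.00293). Fbxl19, whose protein binds CpG islands through a zinc finger, averaged 3.92 ± 0.826 CPM in the cKO and 9.03 ± 1.55 CPM in the control (log2 fold change -1.19, adjusted p = 0.000784). Fbxo46, which in human cells is reported to act on FBXO31, had 53.4, 60.1, 44.3 and 48.3 CPM in the cKO, against 109, 96.2, 78.9 and 115 CPM in the control (log2 fold change -0.95, SE 0.16, adjusted p = 0.000137). Its groups did not overlap. Fbxw4, the gene of the mouse limb mutant Dactylaplasia, averaged 7.09 ± 1.39 CPM in the cKO and 13.2 ± 3.32 CPM in the control (log2 fold change -0.89, adjusted p = 0.00465). Exons of Fbxl2, Fbxo46 and Fbxw4 share 496, 471 and 676 bases with Ubp1, Qpctl and Gm17018 on the opposite strand, and 23.5% of the 100-base windows of Fbxw4 occur in another gene, so their counts are partial. Fbxo40, a muscle ligase for IRS1, averaged 68.9 ± 10.2 CPM in the cKO and 121 ± 10.4 CPM in the control (log2 fold change -0.81, adjusted p = 0.000255). Fbxo47, needed for telomere attachment in mouse spermatocytes, had a log2 fold change of -0.82 (adjusted p = 0.0375), and Fbxo38, which acts on PD-1 in T cells, one of -0.42 (adjusted p = 0.0345). The groups overlapped in both. Fbxo47 was not called without control replicate 2, 3 or 4 or without any single cKO replicate (adjusted p = 0.0517 to 0.110, log2 fold change -0.89 to -0.69). Fbxo38 was not called without control replicate 1 or 2 or cKO replicate 1, 2 or 4 (adjusted p = 0.0508 to 0.123, log2 fold change -0.45 to -0.33).

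**Figure D2:**
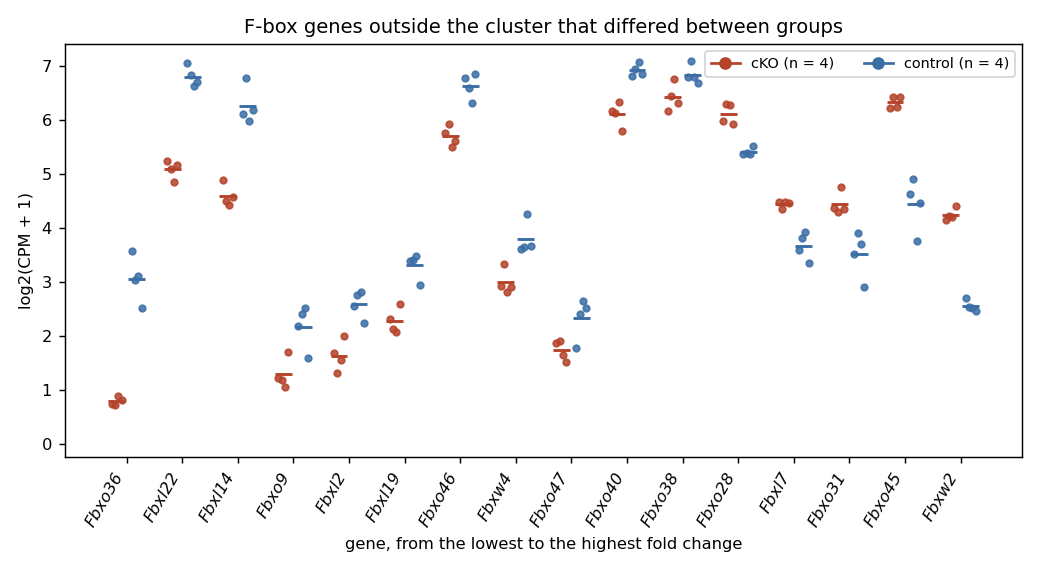
Level of the 16 called F-box genes outside the cluster as log2(CPM + 1), one point per library and a line at the mean, cKO left of control, n = 4 each. Genes run from the lowest to the highest fold change, and the groups overlap in Fbxo9, Fbxo47 and Fbxo38.

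The remaining 14 tested genes outside the cluster were not called. Fbxo30, a ligase of muscle wasting known as MUSA1, was the most abundant F-box gene by counts. It had 1177, 955, 1152 and 1134 CPM in the cKO, against 928, 929, 1383 and 916 CPM in the control (log2 fold change 0.09, SE 0.15, adjusted p = 0.636). The third control library was the highest of all 8, and the other 3 control libraries were below every cKO library. Fbxl20, Fbxl6, Fbxo42 and Fbxo11 came next outside the cluster. Fbxl20, which targets the synaptic protein Rim1, averaged 207 ± 31.0 CPM in the cKO and 180 ± 51.6 CPM in the control, and Fbxo11, which targets BCL6, 118 ± 8.24 CPM in the cKO and 121 ± 27.1 CPM in the control. Log2 fold changes of the 14 ran from -0.21 (Fbxl18) to 0.60 (Fbxo10, a BCL2 ligase, SE 0.35, adjusted p = 0.161), and all 14 overlapped between groups.

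The Fbxw cluster covers chr9:109139447-109790670 of mm10, a span of 651 kb with all 14 genes on the minus strand. The annotation places no other protein-coding gene in it. RefSeq promoters (GRCm38.p6, 250 bases before to 50 after the start) were matched for 57 of the 75 genes and for 11 of the 14 cluster genes. Between any pair of the 11, 74.0% to 97.3% of the 300 bases were identical (median 88.3%, 55 pairs). Among 24 tested F-box genes outside the cluster no pair was above 58.7% (median 48.7%, 276 pairs). The promoters of the most abundant cluster genes per length, Fbxw26 and Fbxw24, are shown beside that of Fbxw16, the gene that fell the most, so that their likeness can be seen. Each is on the minus strand of GRCm38.p6, Fbxw26 at chr9:109746040-109746339, Fbxw24 at chr9:109626010-109626309 and Fbxw16 at chr9:109449091-109449390. Capitals mark the hexamer CAGCTG, a form of the E-box.
Fbxw26: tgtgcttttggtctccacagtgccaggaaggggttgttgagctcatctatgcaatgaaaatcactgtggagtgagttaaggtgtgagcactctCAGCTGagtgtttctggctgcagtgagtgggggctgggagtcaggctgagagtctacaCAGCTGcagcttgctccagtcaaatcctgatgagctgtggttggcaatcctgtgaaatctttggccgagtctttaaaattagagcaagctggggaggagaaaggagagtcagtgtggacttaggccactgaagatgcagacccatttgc
Fbxw24: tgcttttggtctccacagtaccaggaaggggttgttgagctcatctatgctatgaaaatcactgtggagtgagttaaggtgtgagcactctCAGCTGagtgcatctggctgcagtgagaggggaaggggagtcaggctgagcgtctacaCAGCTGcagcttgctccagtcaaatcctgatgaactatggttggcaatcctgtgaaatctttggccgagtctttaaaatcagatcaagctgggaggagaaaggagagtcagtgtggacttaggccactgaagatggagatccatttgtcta
Fbxw16: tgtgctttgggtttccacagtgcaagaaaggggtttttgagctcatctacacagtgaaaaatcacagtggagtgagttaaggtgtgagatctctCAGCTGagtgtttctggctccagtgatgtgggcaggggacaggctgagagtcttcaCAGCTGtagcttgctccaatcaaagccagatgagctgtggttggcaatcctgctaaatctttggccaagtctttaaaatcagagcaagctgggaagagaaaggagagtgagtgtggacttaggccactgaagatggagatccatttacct
The Fbxw16 promoter shared 78.7% to 90.7% of its bases with the other 10, 89.3% with Fbxw26 and 87.0% with Fbxw24. The motifs searched, on both strands, were chosen with these sequences in view. CAGCTG stood in 11 of 11 cluster promoters with 1 or 2 matches each, in 4 of the 24 others and in 16.3% of all 32851 promoters. Every CAGCTG or CACGTG is also counted under the wider E-box CANNTG, which was in 11 of 11 cluster promoters and in 72.3% of all. TTTAAA, a variant of the TATA box, was in 10 of 11 and in 13.2% of all, TATAAA in 0 of 11 and 13.6% of all, and CACGTG in 0 of 11 and 7.15% of all. The NOBOX-type letters TAATTG and TAATTA were in 0 of 11, and in 8.00% and 5.29% of all promoters. The GC box GGGCGG was in 1 of 11 cluster promoters, in 18 of the 24 others and in 35.7% of all. Cluster promoters had a median of 1 CG dinucleotide and those of the other 24 genes a median of 21.5.

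Cluster genes ranked high among the tested F-box genes and mostly fell in the cKO. Per countable kilobase (bases that no other exon of the files covers) the mean level over 8 libraries was 311 CPM for Fbxw26, 237 CPM for Fbxw24, 236 CPM for Fbxw28 and 219 CPM for Fbxo30. In the cKO alone the order was Fbxw26, Fbxo30 (226 CPM), Fbxw28 (217 CPM) and Fbxw24 (208 CPM), and in the control alone Fbxw26, Fbxw24, Fbxw28 and Fbxo30. Over all 8 libraries, next came Fbxw15 at 112 CPM and Fbxw13 at 103 CPM per countable kilobase, while in the cKO Fbxw13 (117 CPM) and Fbxl6 (112 CPM) stood above Fbxw15 (91.2 CPM). Among the 44 tested F-box genes, cluster genes held 9 of the first 11 places in each group. The place of Fbxw13 rests on 226 countable bases. Countable bases do not allow for sequence shared between genes, as in Fbxw28 and Fbxw14. Fbxw24 and Fbxw28 lay closer together than their spread between libraries. The summed level of the 14 genes was 1533 to 1983 CPM in the cKO and 2089 to 2718 CPM in the control. The cluster made up 44.0%, 46.1%, 38.4% and 46.0% of all F-box CPM in the 4 cKO libraries, against 52.4%, 47.9%, 42.4% and 56.2% in the 4 control libraries. The shares overlapped between groups. The summed level of oocyte markers was lower in the cKO as well, as given above, with most of that sum from Bmp15 and Gdf9.

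Fbxw16 stood apart within the cluster. The gene lies at chr9:109432316-109449140. It had 0.222, 0.425, 0.430 and 0 CPM in the cKO, against 3.99, 4.07, 4.47 and 6.00 CPM in the control. That is 5 counts in all 4 cKO libraries and 76 in the control, and 6.21% of the control level remained (log2 fold change -4.01, SE 0.48, adjusted p = 5.53e-06). These counts rest on 309 countable bases, and 9.88% of them lie on last exons. An antisense gene, Gm42493, overlaps the Fbxw16 locus on the other strand with 0 shared exon bases. It had 24.4, 24.9, 28.4 and 31.5 CPM in the cKO, against 11.3, 8.14, 9.73 and 13.0 CPM in the control (log2 fold change 1.37, SE 0.20, adjusted p = 3.56e-05). The library kit did not mark strand, so intron reads of Fbxw16 and reads of Gm42493 cannot be told apart.

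The other 8 called cluster genes fell less. Fbxw21 had 39.2, 44.8, 32.7 and 38.0 CPM in the cKO, against 77.4, 66.1, 88.6 and 85.6 CPM in the control (log2 fold change -1.04, SE 0.16, adjusted p = 5.55e-05). Fbxw20 had 10.4, 7.01, 8.60 and 8.61 CPM in the cKO, against 17.5, 12.7, 15.3 and 17.5 CPM in the control (log2 fold change -0.86, SE 0.21, adjusted p = 0.00238). An upstream last exon of Fbxw20 had 10 counts in the cKO and 86 in the control, and its final exon 154 and 172. As 99.1% of its counts lay on last exons, Fbxw20 could not be tested without them. Fbxw18 had 115, 116, 91.6 and 121 CPM in the cKO, against 205, 186, 160 and 222 CPM in the control (log2 fold change -0.80, SE 0.14, adjusted p = 0.000232). In these 3 genes, and in Fbxw16, Fbxw19 and Fbxw15, every cKO library was below every control library. These are 42.9% of the cluster genes, where the groups did not overlap in 50.1% of all genes tested. Fbxw19 averaged 199 ± 36.9 CPM in the cKO and 292 ± 36.9 CPM in the control (SD, n = 4 each; log2 fold change -0.55, adjusted p = 0.00621). Fbxw15 averaged 87.7 ± 13.6 CPM in the cKO and 128 ± 27.6 CPM in the control (log2 fold change -0.55, adjusted p = 0.0136). The groups overlapped in Fbxw22 (log2 fold change -0.51, adjusted p = 0.0126), Fbxw25 (-0.62, adjusted p = 0.0346) and Fbxw24. Fbxw24 had 325, 324, 253 and 334 CPM in the cKO, against 412, 386, 330 and 453 CPM in the control (log2 fold change -0.35, SE 0.14, adjusted p = 0.0380). It was not called without control replicate 1 or 4 or without any single cKO replicate (adjusted p = 0.0537 to 0.0881, log2 fold change -0.38 to -0.29). Fbxw25 was not called without control replicate 1 or 4 or cKO replicate 1, 3 or 4 (adjusted p = 0.0640 to 0.0847, log2 fold change -0.62 to -0.49). With library sizes left unscaled, which moved the median log2 fold change of all genes up by 0.16 and those of the 44 F-box genes up by 0.15 to 0.17, 5 cluster genes were lower and Fbxw13 was higher.

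**Figure D3:**
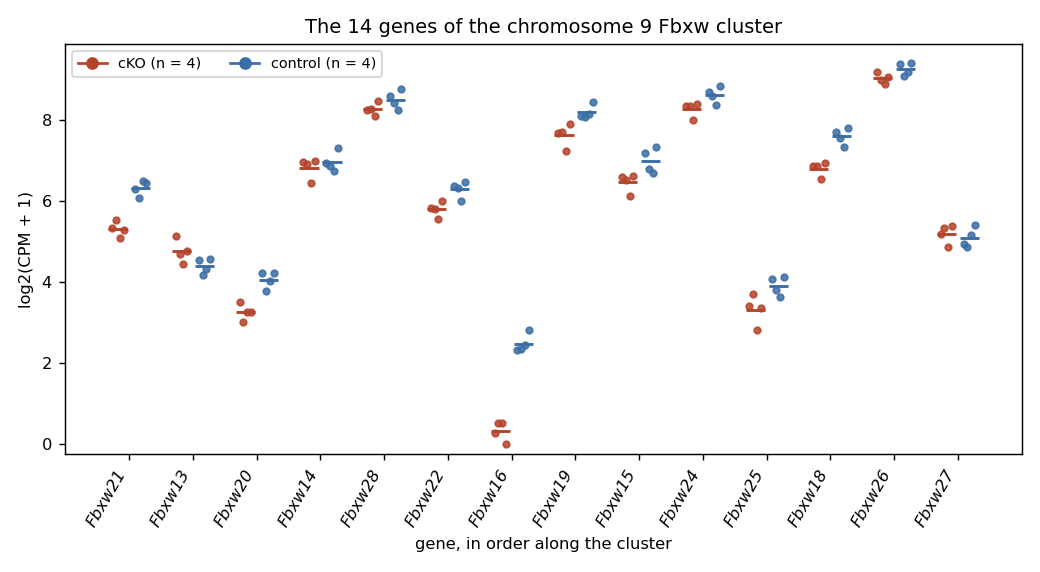
Level of the 14 cluster genes as log2(CPM + 1), one point per library and a line at the mean, cKO left of control, n = 4 each, in order along the cluster. Fbxw16 lies between 0 and 0.430 CPM in the cKO and between 3.99 and 6.00 CPM in the control, and 8 of the 14 genes overlap between groups.

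Fbxw26, Fbxw28, Fbxw14, Fbxw27 and Fbxw13 were not called. Fbxw26, the most abundant of the cluster, had 580, 503, 473 and 532 CPM in the cKO, against 662, 540, 574 and 673 CPM in the control (log2 fold change -0.23, SE 0.12, adjusted p = 0.127). Fbxw28 averaged 309 ± 33.5 CPM in the cKO and 363 ± 56.7 CPM in the control (log2 fold change -0.23, SE 0.14, adjusted p = 0.170). Fbxw14 averaged 113 ± 18.4 CPM in the cKO and 125 ± 21.4 CPM in the control (log2 fold change -0.14, SE 0.16). Fbxw27 averaged 35.8 ± 5.81 CPM in the cKO and 33.5 ± 6.04 CPM in the control (log2 fold change 0.10, SE 0.18). Fbxw13 averaged 26.5 ± 5.69 CPM in the cKO and 20.3 ± 2.78 CPM in the control (log2 fold change 0.38, SE 0.19, adjusted p = 0.110). All 5 overlapped between groups. Longest coding transcripts of the cluster were 77.6% to 99.2% identical in pairs (median 84.2%, 91 pairs). Fbxw14 and Fbxw28 were the closest pair, and 44.8% and 48.3% of their 100-base windows occurred in another gene. How reads were divided between these 2 genes is uncertain.

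**Figure D4:**
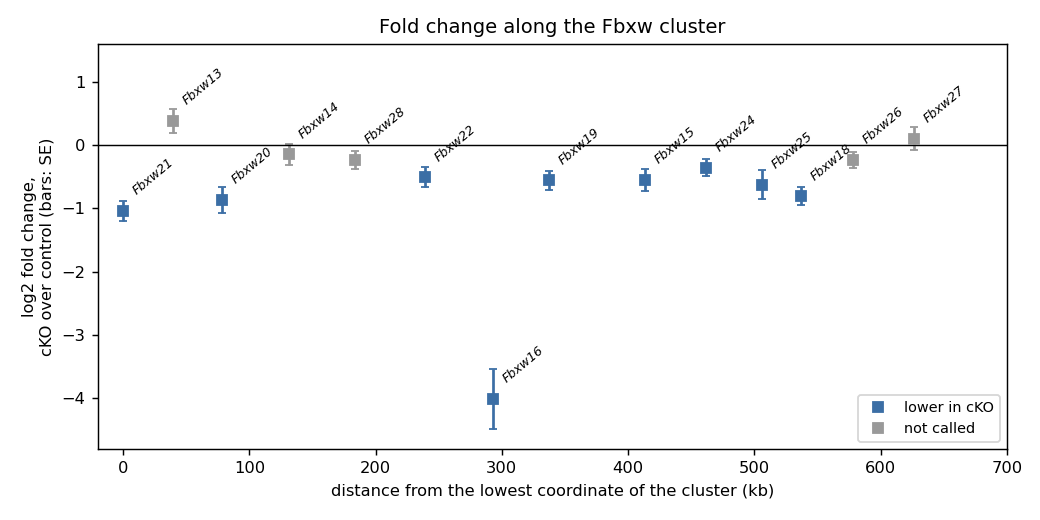
Log2 fold change, cKO over control, of each cluster gene (y axis, bars of 1 standard error) against its distance in kb from the lowest coordinate of the cluster (x axis). Blue genes were lower in the cKO and grey genes were not called, and the genes that were not called lie among those that were.

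Along the cluster, genes that were lower and genes that were not called were interspersed. Fbxw13, not called, lies between Fbxw21 and Fbxw20, which were lower, and Fbxw26 and Fbxw27 lie at the far end beside Fbxw18. The transcribed pseudogene Fbxw23, inside the same span, had 628 counts in the cKO and 993 in the control (log2 fold change -0.88, SE 0.19, adjusted p = 0.000971). Of the 5 nearest tested coding genes on each side, 10 in all, 4 were higher, 3 were lower and 3 were not called.

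Exon use differed within 8 of 18 F-box genes with at least 2 testable exons (diffSpliceDGE of edgeR, Simes test per gene, adjusted over 2847 genes), where 23.6% of all genes tested were called. The 8 were Fbxl22 and 7 of 12 cluster genes. Calls were more frequent among genes with more exons. Of all genes with at least 4 tested exons 46.9% were called, and of the 8 such cluster genes 4 were. The other 3 called cluster genes, Fbxw20, Fbxw21 and Fbxw27, had 2 or 3 tested exons. Single exons were called in 13.4% of cases over all genes.

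Fbxw21 and Fbxw20 lost counts from an upstream last exon. In Fbxw21 this exon of 1040 bases (chr9:109142363-109143402) held 24.1%, 22.8%, 26.2% and 25.0% of the gene's tested counts in the cKO, against 52.3%, 61.0%, 68.0% and 53.9% in the control. It had 174 counts in the cKO and 752 in the control (log2 change against the whole gene, this exon included, -1.27, adjusted p = 5.47e-06). The final exon of 165 bases (chr9:109139447-109139611) had 391 counts in the cKO and 383 in the control, and its share was 54.7% ± 2.12 in the cKO and 29.8% ± 5.50 in the control (SD, n = 4 each; adjusted p = 0.00231). In Fbxw20 the upstream last exon has 1043 bases (chr9:109220343-109221385) and belongs to a transcript annotated as retained intron. It held 4.26%, 6.06%, 5.00% and 9.09% of counts in the cKO, against 30.4%, 38.5%, 39.7% and 27.5% in the control, from 10 and 86 counts (log2 change -2.40, adjusted p = 1.16e-05). Its final exon of 164 bases had 154 counts in the cKO and 172 in the control. No library of the cKO reached the control range for either upstream exon. The upstream exons of the 2 genes are paralogous, with 89.1% identity over 1026 aligned bases. Neither held AATAAA or ATTAAA, the common poly(A) signals, in its last 60 bases, while both final exons did. For each final exon, 30 bases near its end that hold the signal are shown, with AATAAA in capitals. They lie on the minus strand of GRCm38, Fbxw20 at chr9:109217435-109217464 and Fbxw21 at chr9:109139451-109139480.
Fbxw20: cctcaatgatAATAAAggtctttttgcaaa
Fbxw21: cctcaatgatAATAAAagtctatttgcaag
Both windows hold the signal on the strand of the gene, 17 and 18 bases before the annotated transcript end.

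**Figure D5:**
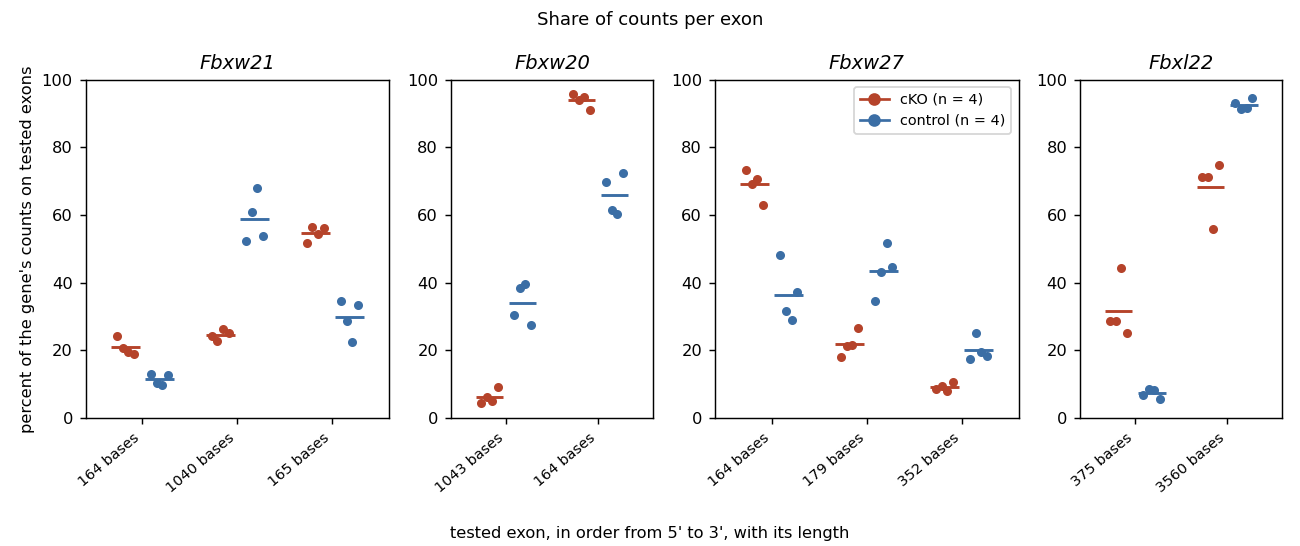
Percent of a gene's counts on each of its tested exons (y axis) for Fbxw21, Fbxw20, Fbxw27 and Fbxl22, exons in 5′ to 3′ order with their length, one point per library and a line at the mean, cKO left of control, n = 4 each. The long upstream last exons of Fbxw21 (24.5% in the cKO, 58.8% in the control) and Fbxw20 (6.10% in the cKO, 34.0% in the control) separate the groups.

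Fbxl22 has 2 exons that could be tested. Its last exon of 3560 bases had 444 counts in the cKO and 1726 in the control, while its first exon of 375 bases had 198 and 136. The first exon held 28.7%, 28.7%, 44.3% and 25.1% of counts in the cKO, against 6.88%, 8.58%, 8.31% and 5.54% in the control (log2 change against the whole gene, this exon included, 2.08, adjusted p = 9.60e-07). The last exon shares 317 bases with Herc1 on the opposite strand, and Herc1 was not called (log2 fold change -0.64, adjusted p = 0.0571). With last exons left out of the gene sums, the log2 fold change of Fbxl22 was 0.50 (adjusted p = 0.0900) instead of -1.75, and that of Fbxw21 was 0.03 (adjusted p = 0.913) instead of -1.04. Of 26 F-box genes that could still be tested in that way, 2 were higher and 6 lower. Over all genes tested so, 23.2% were higher and 23.8% lower. Dropping last exons also moved the median log2 fold change of all genes up by 0.17. Fbxw13, with 0.119% of its counts on last exons, moved by the same 0.17, to 0.55, and was then called higher (adjusted p = 0.0247). Fbxw15, with 0% of its counts there, moved by 0.17 to -0.38 and was no longer called (adjusted p = 0.0789). Fbxw16, Fbxw18 and Fbxw19 remained lower.

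In the other cluster genes the exons called were mostly internal. Fbxw27 had 69.0% ± 4.44 of its counts on an internal exon of 164 bases in the cKO and 36.4% ± 8.48 in the control (SD, n = 4 each; adjusted p = 0.00311), and lower shares of its 2 other tested exons. Fbxw19 had 44.5% ± 3.09 of its counts on a separate 3′ transcript of 2164 bases in the cKO and 28.3% ± 4.51 in the control (adjusted p = 0.00625). An internal Fbxw19 exon of 179 bases held 5.85% ± 0.760 in the cKO and 11.3% ± 0.762 in the control (adjusted p = 0.00125). Fbxw15 had a 119-base exon at 1.76% ± 0.521 in the cKO and 5.43% ± 1.71 in the control, and Fbxw26 a 164-base exon at 2.24% ± 0.442 in the cKO and 4.09% ± 0.704 in the control. Fbxw22 had a 38-base exon at 11.5% ± 3.64 in the cKO and 4.58% ± 0.729 in the control. At a minimum of 50 counts in 4 libraries, Fbxw15 and Fbxw22 were no longer called for exon usage (adjusted p = 1.00 and 0.888). The usage call of Fbxw26 was lost without control replicate 2 or 4 or cKO replicate 1, 2 or 3 (adjusted p = 0.0555 to 0.138), and that of Fbxw19 without cKO replicate 4 (adjusted p = 0.0609).

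The genes that build and run SCF ligases were looked at as well. Of 34 listed genes for SCF cores, their E2 enzymes and their regulators, 19 were tested, and 1 was higher and 5 lower, with a median log2 fold change of -0.22. The 5 lower genes are 26.3% of the 19, near the 27.9% over all genes, and the 1 higher gene is 5.26%, against 27.0% over all genes. Ube2r2, an E2 enzyme of SCF ligases, averaged 20.6 ± 4.74 CPM in the cKO and 9.18 ± 1.85 CPM in the control (SD, n = 4 each; log2 fold change 1.17, adjusted p = 0.000569). Ube2d3, an E2 enzyme that starts chains, averaged 36.7 ± 4.22 CPM in the cKO and 63.4 ± 11.8 CPM in the control (log2 fold change -0.79, adjusted p = 0.00110). Cops9, of the COP9 signalosome that removes Nedd8 from cullins, had a log2 fold change of -0.62 (adjusted p = 0.00321), and Dcun1d3, a cofactor of cullin neddylation, one of -0.89 (adjusted p = 0.00876). Arih1, a ubiquitin ligase that works on neddylated SCF, averaged 145 ± 21.9 CPM in the cKO and 189 ± 29.3 CPM in the control (adjusted p = 0.0400). Its call was lost without control replicate 2 or 4 or cKO replicate 1, 2 or 4 (adjusted p = 0.0569 to 0.134, log2 fold change -0.39 to -0.30). The fifth, Dcun1d1, lost its call without any single library other than control replicate 2 (adjusted p = 0.0626 to 0.129, log2 fold change -0.30 to -0.26). The core genes Skp1a, Cul1 and Rbx1 were not called. Skp1a averaged 7050.3 ± 293 CPM in the cKO and 8407 ± 1105 CPM in the control (log2 fold change -0.25, adjusted p = 0.0784), Cul1 8.01 ± 2.24 CPM in the cKO and 10.3 ± 2.38 CPM in the control, and Rbx1 195 ± 11.2 CPM in the cKO and 212 ± 14.9 CPM in the control. Skp1a was called lower without control replicate 1 (log2 fold change -0.32, adjusted p = 0.0475), without control replicate 3 (-0.30, adjusted p = 0.0317) and among coding genes only (-0.34, adjusted p = 0.0297), and was 0.10 (adjusted p = 0.752) with last exons left out.

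Of 9 F-box genes with other symbols 3 were tested. Lmo7 averaged 4.56 ± 0.893 CPM in the cKO and 14.7 ± 0.925 CPM in the control (log2 fold change -1.69, SE 0.21, adjusted p = 1.05e-05). Btrc, the receptor β-TrCP, had a log2 fold change of -0.47 (adjusted p = 0.0841) and Ccnf, cyclin F, one of 0.19, and neither was called. Btrc was called lower without control replicate 4 (log2 fold change -0.61, adjusted p = 0.0252). Of 30 genes for known F-box targets, 19 were tested, 10 were higher and 1 was lower, with a median log2 fold change of 0.59. These are 52.6% and 5.26% of the 19, against 27.0% higher and 27.9% lower over all genes and 30.4% and 23.5% over protein-coding genes. The list of targets was chosen with earlier results of these data known, so this contrast is not a test. Snai1, the target of Fbxl14 named above, averaged 249 ± 26.5 CPM in the cKO and 32.0 ± 29.7 CPM in the control (log2 fold change 2.95, SE 0.40, adjusted p = 2.13e-05). Control replicate 2 stood at 76.4 CPM and the other 3 control libraries at 13.3 to 20.6 CPM, and without it the log2 fold change was 3.83 (adjusted p = 8.59e-09). Nfkbia, a target of β-TrCP and brake on NF-κB, averaged 92.1 ± 7.89 CPM in the cKO and 31.5 ± 7.30 CPM in the control (log2 fold change 1.55, adjusted p = 4.13e-06). Wee1, a target of β-TrCP and a kinase that restrains Cdk1, averaged 241 ± 45.1 CPM in the cKO and 97.1 ± 23.6 CPM in the control (log2 fold change 1.31, adjusted p = 2.93e-05). Ccne1, cyclin E1 and a target of Fbxw7, averaged 53.1 ± 15.2 CPM in the cKO and 13.7 ± 8.00 CPM in the control (log2 fold change 1.95, adjusted p = 9.77e-05). Slbp, the histone mRNA binding protein and a target of cyclin F, averaged 17.4 ± 3.31 CPM in the cKO and 27.6 ± 2.27 CPM in the control (log2 fold change -0.66, adjusted p = 0.00666). Proteins were not measured.

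The 31 F-box genes that could not be tested held 0 to 71 counts per group of 4 libraries. Fbxo22, Fbxo24, Fbxo44 and Fbxw9 had 0 counts in all 8 libraries, which, by the counting rule, does not show that they are silent. Fbxl16 had 6, 19, 32 and 14 counts in the cKO and 0 in every control library, at least 22.7-fold higher against a floor of 3 counts over the control group. Fbxo4 had 21 counts in the cKO and 1 in the control (ratio 20.1, 95% interval 3.23 to 831). Fbxo7, the gene PARK15 of human parkinsonism, had 2 counts in the cKO and 20 in the control (ratio 0.0957, 95% interval 0.0108 to 0.394). These exact intervals cover counting error only. Fbxw7, the receptor for cyclin E and Myc, had 0 counts in the cKO and 2 in the control, too few for a comparison.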

How the data were processed

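RNA of 8 pools of GV oocytes was measured, 4 cKO and 4 control. Per the labels' protocols, cDNA was primed on poly(A) tails, extended by template switching, amplified and cut by tagmentation for paired reads, a kit that does not mark strand. The deposited values are raw counts of reads for each exon ID, 1 file a library. The submitters' processing notes name STAR, HTSeq and mm10. Versions, options and the annotation used were not given in the sources used here. Counts were 14.6% to 15.6% of the sum of counts, ambiguous reads and reads outside exons. Reads set apart for other reasons were left out of that sum. A read that met more than 1 exon ID was counted for none, so exons that overlap others have few counts or none. By the same rule, reads that join exons of a gene were not counted. A low count therefore does not show low expression.

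GENCODE M21 (GRCm38) supplied the genes of the exon IDs, versions ignored. Of 496288 IDs 494230 (99.6%) matched. Those unmatched, with 0.252% of counts, and 5 summary rows that name no exon stayed out. Counts were summed per gene, filtered by filterByExpr (minimum count 10), scaled by TMM and tested two-sided by quasi-likelihood F test in edgeR 4.0.16 under R 4.3.3, group as the only term, adjusted p under 0.05. CPM are counts relative to the TMM-scaled library total. Exon shares are over tested exons, in genes with at least 2. Simulated counts holding known changes were run through the gene test and the exon usage test, the latter with the same spread for every exon. The permutation test was not checked in this way. Alternatives were RLE, upper-quartile and no scaling, DESeq2 1.42.0, no count filter, at least 50 counts in 4 libraries, last exons left out, coding genes only, a replicate block, and each library left out. Identity came from global alignment with Biopython 1.88, and intervals are exact.

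The 75 genes, the pathway and marker lists and the tests were chosen with earlier results of these data known. Named are every called F-box gene, every cluster gene, the 5 most abundant F-box genes, those called for exon usage, up to 4 called genes per direction of each pathway list, and Virma. Others named, such as Fbxw23, Gm42493, Dcun1d1 and the untested genes, were chosen after their values were seen. The values of 1 untested F-box gene are not reported here.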

Additional observations from a re-analysis of the deposited data

Results flagged for a closer look

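In 7 of 88 sets of 4 libraries checked, 1 library lay far from the other 3, by a gap above Dixon's 95% critical value. Chance alone gives about 1 in 20. In the cKO, replicate 3 was the library concerned each time. It was the highest for Fbxo31 at 26.0 CPM, with 19.7 CPM in the nearest library, and the lowest for Fbxw14 at 85.6 CPM and Fbxw24 at 252.8 CPM, with 119 and 323.6 CPM in the nearest libraries. Among the controls, replicate 3 was highest for Fbxo30 at 1383 CPM (nearest 929 CPM) and for Fbxw4 at 18.1 CPM (nearest 11.8 CPM). Control replicate 2 was highest for Fbxl18 at 13.9 CPM (nearest 8.42 CPM), and control replicate 4 for Fbxo28 at 45.3 CPM (nearest 40.9 CPM). Fbxo31, Fbxw4 and Fbxo28 kept their calls in every alternative in which they were tested.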

How the results depend on the processing

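Of 510 recomputed fold changes of named F-box genes, 462 kept their direction and call, 41 in 6 genes (Fbxo47, Fbxw24, Fbxo38, Fbxw25, Fbxw15, Fbxw22) missed the threshold, 3 in Fbxw13 and Fbxw26 passed it and 4 changed sign. The sign changes were Fbxw14 without scaling (0.010) and without last exons (0.021), and, without last exons, Fbxl22 (0.50) and Fbxw21 (0.033). Fbxw14 had 0% of its counts on last exons and moved by 0.15 and 0.17, against median shifts over all genes of 0.16 and 0.17. Fbxl22 and Fbxw21 had 86.7% and 83.0% of their counts on the exons left out. Without scaling, 1 cluster gene was higher and 5 lower, and 3 SCF genes were lower. With no count filter, 9 F-box genes were higher, 2 SCF genes higher and 3 lower, and 2 F-box genes with other symbols lower. With at least 50 counts in 4 libraries, 6385 genes were tested and 1858 were higher and 1903 lower, 13 F-box genes were lower, and 3 genes, all in the cluster, were called for exon usage. Without last exons, 4189 genes were tested, 973 higher and 995 lower. Of F-box genes 2 were then higher and 6 lower, of cluster genes 1 higher and 3 lower, of SCF genes 1 lower, of other-symbol genes 0 lower and of targets 5 higher and 0 lower. Fewer genes could be tested in both. Without last exons 13 of 14 cluster genes were still tested. The calls of Fbxw15 (-0.38), Fbxw22 (-0.41), Fbxw24 (-0.20) and Fbxw25 (-0.47) were among those lost. Fbxw15, Fbxw24 and Fbxw25 moved by 0.17, 0.16 and 0.15, near the median shift of 0.17 over all genes. Fbxw22, with 47.8% of its counts on last exons, moved by 0.10. With coding genes only, 2 other-symbol genes and 2 targets were lower. Leaving out 1 library in turn gave 5 to 8 F-box genes higher and 16 to 19 lower, 7 to 9 cluster genes lower, 3 to 5 SCF genes lower (3 without cKO replicate 1, 2 or 4), 1 to 2 other-symbol genes and 1 to 2 targets lower (2 without control replicate 4), and 7 to 9 genes called for exon usage. The same replicate number did not pair libraries (correlations of deviations -0.05 to 0.10). With a replicate block 5 F-box genes were higher and 19 lower, and 2885 of all genes higher and 2908 lower.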
